A study of Homo sapiens with 6 samples.

Results

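Zinc finger transcription factors whose symbols start with ZBTB, ZSCAN or ZKSCAN were examined in the human osteosarcoma cell line Saos-2 after 24 h with 0.20 µM AIL (ailanthone, a plant quassinoid, at the dose the labels give as its IC50) or with the solvent DMSO. There were 3 libraries of AIL-treated cells and 3 of DMSO-treated cells, all grown with 10% fetal bovine serum and each counted as 1 replicate. Members were the rows with these prefixes and a number whose mean over the 6 libraries was at least 1 CPM (TMM-scaled counts per 1000000 reads). Of 59 such rows among the 13439 genes of the table, 58 passed. They comprised 37 ZBTB genes, 13 ZSCAN genes, 7 ZKSCAN genes and ZBTB8OS, a gene named for its place beside the ZBTB8 genes, whose product has no BTB domain and which is kept apart from the classes. The row left out was ZBTB20, a regulator of liver and brain genes, with a mean of 0.755 CPM, and the member nearest above the threshold was ZBTB8B with a mean of 1.58 CPM. ZBTB20 had 0.60, 0.53 and 0.78 CPM under AIL and 0.74, 0.79 and 1.09 CPM under DMSO. The labels call the replicates biological but do not describe separate cultures. The p-values set the difference between AIL and DMSO against the spread between libraries within these groups. For each gene the test used, limma, drew this spread toward that of genes of similar level, as it did for the SE and intervals.

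ZBTB proteins join DNA-binding zinc fingers to a BTB domain, a surface through which they pair with each other and bind corepressors such as NCOR1 and BCOR, or the ubiquitin ligase scaffold CUL3. ZSCAN and ZKSCAN proteins carry a SCAN domain instead, which also mediates pairing, and the ZKSCAN proteins add a KRAB domain, which in many zinc finger proteins recruits the corepressor TRIM28. The classes include factors that read methylated DNA, sit at telomeres, work with MYC or set the fate of blood cells, while many members have no settled role.

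As measured from the step of 1 read among low values, scaled depths were 35900000 to 38000000 reads in the AIL libraries and 32500000 to 35800000 reads in the DMSO libraries. Of the osteoblast markers, the regulator RUNX2 was detected, at a mean of 4.72 CPM under AIL and 4.66 CPM under DMSO. SPP1, BGLAP and SPARC were at 0.28 CPM or less in each of the 6 libraries, and other markers of that list are not reported here. Of 10 markers of other cells, CD68, a macrophage marker that is also a lysosomal protein, and CDH5, an endothelial marker at 0.12 CPM or less in each library, were in the table, and summed to 2.59 to 3.26 CPM under AIL and 0.76 to 0.91 CPM under DMSO. Mitochondrially encoded transcripts, held as a sign of RNA quality, were lower for 10 of 13 genes and summed to 3600 to 3726 CPM under AIL and 4205 to 4374 CPM under DMSO. The part of these shifts in the differences of the members was not tested. In bulk libraries, fewer cells that express a gene and less RNA per cell cannot be told apart.

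Under AIL, 25 of the 58 members rose and 5 fell, and 28 did not pass the threshold of limma (adjusted p under 0.05 over the 11069 genes that reached a mean of 1 CPM). The members were thus called in 51.7% of cases, beside 54.1% of all genes tested, so the share that changed was near the background. The direction was less even, with 43.1% of members higher, beside 28.2% of all genes tested, and 8.62% lower, beside 25.9%. The median difference of the members was 0.11 (AIL minus DMSO, the scale of all differences being log2(CPM + 1)), against 0.01 over all genes tested. The 412 tested genes with ZNF symbols, the larger body of zinc finger genes, had 43.9% higher, 8.74% lower and a median of 0.11. In 24 members all AIL libraries lay above all DMSO libraries and in 9 all lay below, beside 30.9% and 29.2% of all genes tested. No test of the members against other genes was run. Most member changes were small. A ratio of mean CPM of at least 1.2 was reached by 16 of the members that rose, or 27.6% of all members, beside 12.7% of all genes tested and 25.7% of the ZNF genes. Of the members that fell, only ZBTB8B had a ratio of 0.8 or less, a bound passed by 5.38% of all genes tested.

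**Figure D1:**
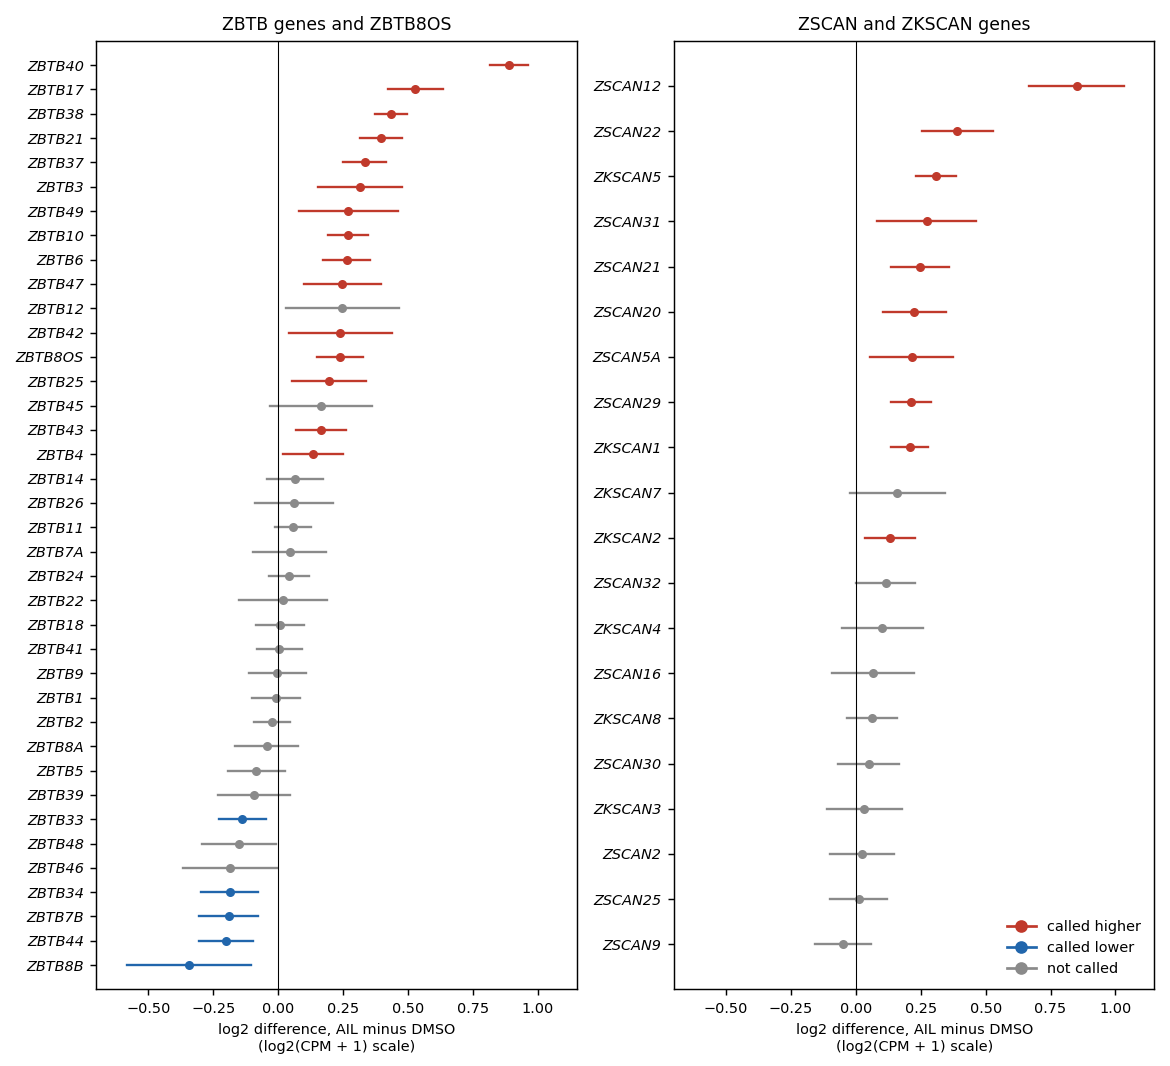
Difference between AIL and DMSO (x axis, log2(CPM + 1) scale) for each of the 58 members, with the 95% confidence interval of limma as a line. Red members were called higher, blue ones lower and grey ones were not called, and ZBTB40 and ZSCAN12 stand at 0.89 and 0.85, beyond the next member at 0.53.

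The BTB and SCAN classes were called about as often, 51.4% of the 37 ZBTB genes and 50% of the 20 ZSCAN and ZKSCAN genes. Of all genes tested, 54.1% were called, 28.2% higher and 25.9% lower. Among the ZBTB genes 14 rose and 5 fell, a share of 37.8% higher and 13.5% lower, with a median difference of 0.06. Among the SCAN genes 10 rose and 0 fell in limma, also 0 at an unadjusted p under 0.05, with a median of 0.15. By sign alone, 19 of the 20 SCAN genes and 24 of the 37 ZBTB genes were above 0. So were 5727 of the 11069 genes tested, 300 of the 412 ZNF genes and 17 of 25 tested SCAN genes with other symbols. The lowest gene of the SCAN class, ZSCAN9, stood at -0.05. Within the SCAN class, 7 of 13 ZSCAN and 3 of 7 ZKSCAN genes rose. With quantile normalization, 11 ZBTB genes rose and 7 fell. The count of ZBTB genes that fell was 3 without DMSO replicate 1, when ZBTB33 and ZBTB8B lost their calls. The difference between the classes was not itself tested.

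**Figure D2:**
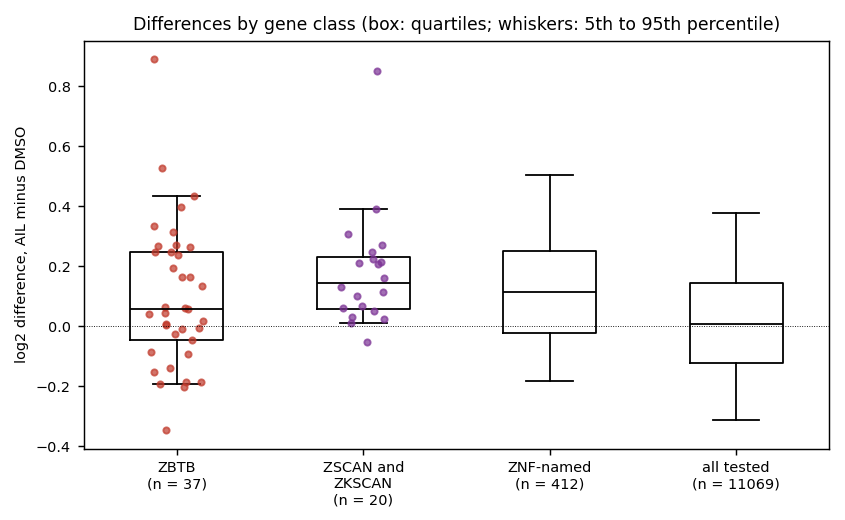
Differences between AIL and DMSO (y axis, log2(CPM + 1) scale) for ZBTB genes, ZSCAN and ZKSCAN genes, ZNF-named genes and all genes tested. Points are single members, boxes show quartiles and whiskers the 5th to 95th percentile, and the medians are 0.06, 0.15, 0.11 and 0.01.

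Promoter sequence was available for 51 of the 58 members in the RefSeq table used (build GRCh38.p14), which had no entry for ZBTB40, ZBTB17, ZBTB10, ZBTB6, ZBTB41, ZSCAN16 and ZKSCAN2. The 250 bases before the start farthest upstream are shown for ZSCAN12, ZBTB21 and ZSCAN22, which are among the members that rose most, for ZBTB43 and ZBTB34, neighbours that moved in opposite directions, and for ZBTB44, which fell. Capitals mark letters that match a searched motif on either strand.
ZSCAN12, chr6:28399748-28399997, minus strand: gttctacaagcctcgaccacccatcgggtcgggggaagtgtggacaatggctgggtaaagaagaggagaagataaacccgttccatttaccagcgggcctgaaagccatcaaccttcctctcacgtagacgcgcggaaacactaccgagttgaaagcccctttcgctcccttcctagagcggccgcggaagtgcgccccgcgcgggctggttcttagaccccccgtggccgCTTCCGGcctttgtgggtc
ZBTB21, chr21:42010361-42010610, minus strand: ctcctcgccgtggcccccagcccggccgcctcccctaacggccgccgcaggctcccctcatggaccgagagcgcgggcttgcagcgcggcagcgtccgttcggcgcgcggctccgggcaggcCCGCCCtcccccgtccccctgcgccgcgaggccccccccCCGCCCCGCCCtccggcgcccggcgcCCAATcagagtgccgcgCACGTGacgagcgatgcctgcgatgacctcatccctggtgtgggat
ZSCAN22, chr19:58326744-58326993, plus strand: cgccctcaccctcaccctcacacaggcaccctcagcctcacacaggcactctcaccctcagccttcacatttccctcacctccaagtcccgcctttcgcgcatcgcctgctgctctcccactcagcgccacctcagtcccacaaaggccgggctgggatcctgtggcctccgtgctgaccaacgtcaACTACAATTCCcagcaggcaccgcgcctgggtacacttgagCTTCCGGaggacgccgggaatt
ZBTB43, chr9:126804790-126805039, plus strand: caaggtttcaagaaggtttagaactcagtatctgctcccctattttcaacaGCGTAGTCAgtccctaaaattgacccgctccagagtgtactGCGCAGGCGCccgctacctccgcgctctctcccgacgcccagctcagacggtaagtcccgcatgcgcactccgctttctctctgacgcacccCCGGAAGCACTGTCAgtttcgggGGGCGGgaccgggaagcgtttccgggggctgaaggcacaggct
ZBTB34, chr9:126860389-126860638, plus strand: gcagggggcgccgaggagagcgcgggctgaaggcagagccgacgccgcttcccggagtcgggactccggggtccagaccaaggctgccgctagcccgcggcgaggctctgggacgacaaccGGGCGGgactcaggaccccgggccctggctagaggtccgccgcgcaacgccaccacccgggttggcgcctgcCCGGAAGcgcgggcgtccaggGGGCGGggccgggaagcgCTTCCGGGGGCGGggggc
ZBTB44, chr11:130314918-130315167, minus strand: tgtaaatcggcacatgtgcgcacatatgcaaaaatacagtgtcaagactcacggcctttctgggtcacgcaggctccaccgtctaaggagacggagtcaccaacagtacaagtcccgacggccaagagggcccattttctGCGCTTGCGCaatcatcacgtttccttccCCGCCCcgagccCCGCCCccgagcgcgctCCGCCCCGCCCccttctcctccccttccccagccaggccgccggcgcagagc
The motifs were GGGCGG (SP factors), CCAAT (NFY), CCGGAAG (ETS), TGACGTCA (CRE), CACGTG (E-box), the NRF1 motif, AAGATGGCG (YY1), TGACNNNGC (antioxidant response element), GAANNTTC (heat shock factor) and the ZNF143 motif, each searched on both strands, and matches may overlap.

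In these windows, ZBTB21, ZBTB34, ZBTB43 and ZBTB44 held matches to the SP letters and ZSCAN12 and ZSCAN22 none, while an ETS match stood in ZSCAN12, ZSCAN22, ZBTB43 and ZBTB34. Over the classes, the ETS letters were found in 9 of 18 SCAN promoters (50%) and 8 of 32 ZBTB promoters (25%), against 17.5% of 8486 promoters of tested genes and 8.78% of all 27305 promoters. The E-box was in 6 ZBTB promoters (18.8%) and 0 SCAN promoters, against 9.17% of tested genes. SP letters were in 75% of ZBTB and 66.7% of SCAN promoters, against 69.0% of tested genes and 42.2% of all promoters. NFY letters were in 40.6% of ZBTB and 27.8% of SCAN promoters, against 35.8% of tested genes and 33.0% of all promoters. By response, ETS letters were in 8 of 20 promoters of members that rose, in 2 of 5 of those that fell and in 7 of 26 of those not called. The antioxidant response letters were in 3 of the 20, 0 of the 5 and 3 of the 26. In the same order, SP letters were in 12, 5 and 20, NFY letters in 5, 2 and 12, the E-box in 4, 0 and 3 and NRF1 in 3, 1 and 1. Of the remaining motifs, NRF1 was in 5 of the 51 member promoters, against 11.7% of tested genes and 5.53% of all promoters, and CRE, heat shock and ZNF143 letters were in 1 each, against 3.00, 3.89 and 2.45% of tested genes and 1.75, 5.85 and 1.02% of all promoters. YY1 letters were in 0 of the 51, against 1.19% of tested genes and 0.641% of all. For the E-box and antioxidant letters, the shares of all promoters were 6.46 and 11.1%, and the antioxidant letters were in 12.2% of tested genes. A match is a description of the letters and no evidence of binding.

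On the log2(CPM + 1) scale, the member that rose most was ZBTB40, whose gene lies at a locus linked to bone mineral density in people. It had 128.05, 119.18 and 117.85 CPM in the AIL libraries, against 66.46, 65.14 and 63.93 CPM in the DMSO libraries. All AIL libraries were thus far above all DMSO libraries, a ratio of means of 1.87 and a log2 difference of 0.89 (SE 0.0344, limma adjusted p = 4.21e-12). ZSCAN12, a SCAN zinc finger gene with no settled role, had 9.62, 9.98 and 11.72 CPM under AIL, against 5.65, 4.57 and 5.83 CPM under DMSO. Its groups did not overlap, with AIL replicate 3 the highest, and the log2 difference was 0.85 (95% interval 0.67 to 1.03, limma adjusted p = 3.16e-07). By ratio of means ZSCAN12 rose more than ZBTB40, at 1.95 against 1.87. With a pseudocount of 0.1 its log2 difference was also the larger, at 0.95 against 0.90. Across the 15 settings tried, main one included, the difference of ZBTB40 ranged from 0.85 to 0.91 and that of ZSCAN12 from 0.58 to 0.95.

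ZBTB17 encodes MIZ1, which activates cell cycle inhibitor genes and is turned into a repressor by MYC. It had 31.28, 29.83 and 28.60 CPM under AIL, against 19.97, 21.73 and 19.59 CPM under DMSO. The lowest AIL library lay well above the highest DMSO library, and the log2 difference was 0.53 (SE 0.0509, limma adjusted p = 1.57e-07). MYC itself fell to 92.7 ± 2.31 CPM under AIL, against 102.5 ± 1.46 CPM under DMSO (SD, n = 3; limma adjusted p = 6.48e-04). CDKN1A, a target of MIZ1, averaged 31.9 CPM under AIL and 32.9 CPM under DMSO and did not pass (limma adjusted p = 0.409). ZBTB49, reported to work with MIZ1 at the CDKN1A promoter, had 4.42, 4.26 and 3.45 CPM under AIL, against 3.07, 3.06 and 3.38 CPM under DMSO. Its lowest AIL library was barely above its highest DMSO library, and its call (log2 difference 0.27, limma adjusted p = 0.0182) was lost without AIL replicate 1 or 2 or without DMSO replicate 1 or 2 (adjusted p 0.0918, 0.0743, 0.0533 and 0.0576).

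**Figure D3:**
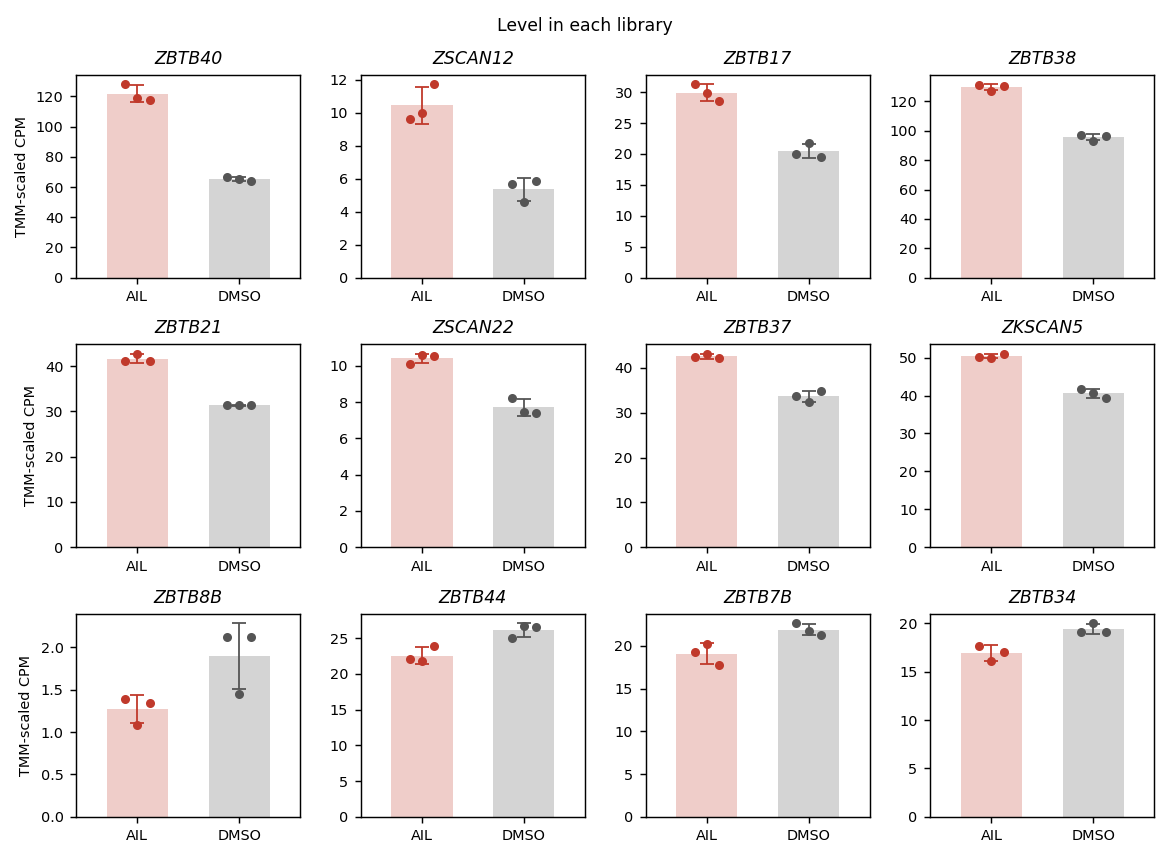
Level of 12 members in each library (y axis, TMM-scaled CPM from 0), with AIL left and DMSO right. Points are libraries, bars means and error bars SD (n = 3), and the AIL and DMSO points do not overlap in any of the 12 panels.

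Of the ZBTB proteins that bind methylated DNA, ZBTB38 and ZBTB4 rose and ZBTB33 fell. ZBTB38 had 131.33, 127.28 and 130.08 CPM under AIL, against 97.10, 93.11 and 96.64 CPM under DMSO, with little spread in either group. Its log2 difference was 0.43 (SE 0.0292, limma adjusted p = 2.16e-09). ZBTB33, which encodes Kaiso, had 36.19, 35.91 and 35.45 CPM under AIL, against 42.16, 37.93 and 38.71 CPM under DMSO. DMSO replicate 1 was the highest, and without it the difference of -0.14 (limma adjusted p = 0.0117) became -0.09 and was no longer called (adjusted p 0.0958). ZBTB4 averaged 25.1 ± 0.614 CPM under AIL and 22.8 ± 1.96 CPM under DMSO (SD, n = 3), and its groups overlapped. Its call was the weakest among the members (log2 difference 0.14, limma adjusted p = 0.0467) and was lost in 9 of 14 alternative settings, among them the omission of each AIL replicate and of DMSO replicate 1 or 3, with adjusted p up to 0.194.

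Several further ZBTB genes rose, most of them with little known function. ZBTB21 had 41.05, 42.74 and 41.21 CPM under AIL, against 31.34, 31.51 and 31.31 CPM under DMSO, a log2 difference of 0.40 (SE 0.0383, limma adjusted p = 1.57e-07). Its DMSO libraries were nearly equal and all AIL libraries lay above them. ZBTB37 had 42.55, 43.18 and 42.16 CPM under AIL, against 33.71, 32.39 and 34.83 CPM under DMSO (log2 difference 0.33, limma adjusted p = 1.90e-06). ZBTB3 had 5.02, 5.14 and 4.87 CPM under AIL, against 3.69, 3.75 and 4.05 CPM under DMSO (log2 difference 0.32, limma adjusted p = 0.00203). ZBTB10, reported to bind variant telomere repeats, had 70.57, 65.88 and 67.17 CPM under AIL, against 54.51, 56.18 and 57.96 CPM under DMSO (log2 difference 0.27, limma adjusted p = 8.66e-06). The groups did not overlap for ZBTB37, ZBTB3 or ZBTB10. ZBTB6, ZBTB47, ZBTB42, ZBTB25 and ZBTB43 rose by 0.26, 0.25, 0.24, 0.20 and 0.16. The call of ZBTB42 was lost with quantile normalization and without AIL replicate 1 or 2 or DMSO replicate 2 or 3 (adjusted p 0.0710 to 0.132). That of ZBTB25 was lost with quantile normalization and without AIL replicate 2 or DMSO replicate 1 (0.0678 to 0.117).

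The other ZBTB genes that fell were ZBTB8B, ZBTB44, ZBTB7B and ZBTB34. ZBTB8B had 1.39, 1.08 and 1.34 CPM under AIL, against 2.12, 1.45 and 2.12 CPM under DMSO. It was low throughout, with DMSO replicate 2 close to the AIL libraries, and its difference of -0.35 (limma adjusted p = 0.0160) lost its call without AIL replicate 2 or DMSO replicate 1 or 3 (adjusted p 0.0769, 0.0734 and 0.0703). ZBTB44 had 22.02, 21.76 and 23.89 CPM under AIL, against 24.95, 26.73 and 26.57 CPM under DMSO (log2 difference -0.20, limma adjusted p = 0.00234). ZBTB7B, which encodes ThPOK, the factor that directs T cells to the CD4 lineage, had 19.27, 20.21 and 17.77 CPM under AIL, against 22.65, 21.76 and 21.32 CPM under DMSO (-0.19, limma adjusted p = 0.00594). ZBTB34 had 17.71, 16.09 and 17.01 CPM under AIL, against 19.11, 20.01 and 19.09 CPM under DMSO (-0.19, limma adjusted p = 0.00601). For all 4 genes the AIL libraries lay below the DMSO libraries, and for ZBTB44, ZBTB7B and ZBTB34 the falls were 13.5, 12.9 and 12.7% of the mean.

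The 18 ZBTB genes not called include well-studied regulators. ZBTB7A, which silences fetal globin genes and restrains glycolysis, averaged 14.4 ± 0.849 CPM under AIL and 13.9 ± 1.27 CPM under DMSO (SD, n = 3), with an interval of the difference of -0.10 to 0.18. ZBTB18, a repressor in neurons, stood at 0.01 (interval -0.09 to 0.10), ZBTB2, a repressor of CDKN1A, at -0.02 (-0.09 to 0.04) and ZBTB1, needed for lymphocyte development, at -0.01 (-0.10 to 0.08). ZBTB24, which is mutated in an immunodeficiency with loss of DNA methylation at centromeric repeats, stood at 0.04 (-0.04 to 0.12). ZBTB11, needed for mitochondrial function, stood at 0.06 (-0.01 to 0.13). These intervals lie within 0.2 of 0 on the log2 scale. ZBTB48, which binds telomere repeats, and ZBTB46, a marker of dendritic cells, stood at -0.15 and -0.19 but missed the threshold (limma adjusted p = 0.0679 and 0.0761). Their AIL libraries lay barely below their DMSO libraries. The highest AIL and lowest DMSO values were 13.35 and 13.44 CPM for ZBTB48 and 4.18 and 4.19 CPM for ZBTB46. Both passed with quantile normalization (adjusted p 0.0205 and 0.0343), ZBTB48 also with median-of-ratios scaling (0.0472) and ZBTB46 also without DMSO replicate 3 (0.0359). ZBTB12 stood at 0.25 but was variable, with 2.31, 3.32 and 2.90 CPM under AIL, against 2.27, 2.03 and 2.37 CPM under DMSO (limma adjusted p = 0.0522), and passed without AIL replicate 1 (adjusted p 0.0106).

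Among the SCAN genes after ZSCAN12, ZSCAN22 had 10.12, 10.59 and 10.53 CPM under AIL, against 8.23, 7.48 and 7.42 CPM under DMSO, a log2 difference of 0.39 (SE 0.0644, limma adjusted p = 6.54e-05). ZKSCAN5 had 50.25, 49.96 and 51.02 CPM under AIL, against 41.76, 40.56 and 39.32 CPM under DMSO (0.31, limma adjusted p = 1.98e-06). The groups of both genes stood clearly apart. ZSCAN31 had 4.15, 4.64 and 5.51 CPM under AIL, against 3.81, 3.57 and 3.88 CPM under DMSO. Its rise of 0.27 (limma adjusted p = 0.0163) leaned on AIL replicate 3, without which it was 0.18 (adjusted p 0.0963), and was also not called without DMSO replicate 2 (0.0597).

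ZSCAN21, ZSCAN20, ZSCAN5A, ZSCAN29, ZKSCAN1 and ZKSCAN2 rose by 0.25, 0.22, 0.21, 0.21, 0.21 and 0.13, each with AIL above DMSO in all libraries. The call of ZSCAN5A was lost with quantile normalization and without AIL replicate 2 or DMSO replicate 1 or 3 (adjusted p 0.0534 to 0.104), and that of ZKSCAN2 without AIL replicate 1 or DMSO replicate 3 (0.0539 and 0.0852). For ZSCAN21, 36.7% of the 50-base words in its annotated transcripts lie antisense to transcripts of other genes, ZNF3 first among them. ZSCAN32, not called at 0.12, shares 75.3% in this way. Since the use of strand in counting is not given, reads of such genes cannot be separated. On the same strand, 26.9% of the words of ZBTB8A, 13.8% of ZBTB8B and 93.7% of ZBTB9 occur in another annotated gene, so their values are uncertain to that extent.

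Some members lie close together on a chromosome. In the order of protein-coding genes in RefSeq, 7 SCAN members lie within a stretch of 10 genes, in the order ZSCAN16, ZKSCAN8, ZSCAN9, ZKSCAN4, ZSCAN31, ZKSCAN3 and ZSCAN12. Of these 7, ZSCAN31 and ZSCAN12 rose, a share near the 28.2% of all genes tested. The median difference of the 7 was 0.07, against 0.01 over all genes tested. ZKSCAN3, a repressor of autophagy genes and the immediate neighbour of ZSCAN12, had 7.25, 6.52 and 6.93 CPM under AIL, against 6.61, 6.84 and 6.70 CPM under DMSO, and stood at 0.03. The difference of ZSCAN12 exceeded that of ZKSCAN3 by 0.82. In a stretch of 16 genes, ZKSCAN5, ZKSCAN1 and ZSCAN21 rose and ZSCAN25, which lies between them, stood at 0.01 (interval -0.10 to 0.12, limma adjusted p = 0.879).

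The neighbours ZBTB43 and ZBTB34 were called in opposite directions, at 0.16 and -0.19. ZBTB43 had 27.23, 27.90 and 26.04 CPM under AIL, against 23.35, 24.61 and 24.19 CPM under DMSO, and ZBTB34 is given above. The log2 ratio of ZBTB43 to ZBTB34 was higher in all AIL than in all DMSO libraries, by 0.35. In the ZBTB8 group, ZBTB8OS rose to 32.5 ± 0.786 CPM under AIL, against 27.5 ± 0.644 CPM under DMSO (SD, n = 3; limma adjusted p = 1.35e-04), ZBTB8B fell and ZBTB8A stood between them at -0.04. ZBTB8A and ZBTB8B share words with the same further annotated gene, and ZBTB8A lies partly antisense to ZBTB8OS. Reads of the ZBTB8 group may therefore not be fully separated. ZBTB6 rose by 0.26 and its neighbour ZBTB26 stood at 0.06, a gap of 0.20. Such ratios were compared for 10 pairs of adjacent members, and the two-sided exact permutation test of 3 against 3 libraries cannot give a p under 0.1, so that no pair could pass 0.05.

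**Figure D4:**
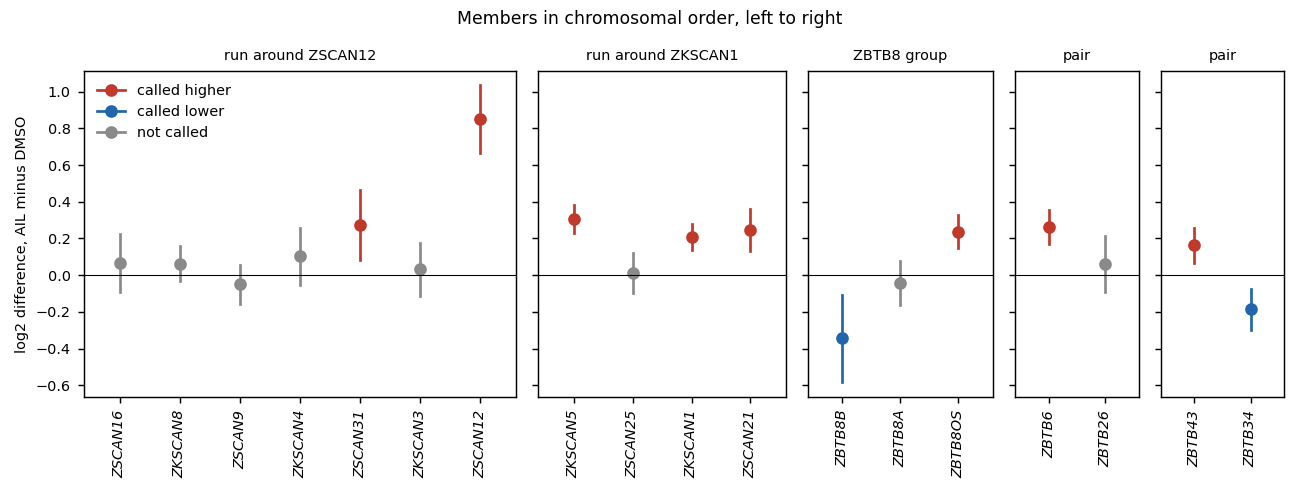
Difference between AIL and DMSO (y axis, log2(CPM + 1) scale) of members that lie near each other, in chromosomal order from left to right, with 95% confidence intervals of limma. Red was called higher, blue lower and grey not called, and ZSCAN12 at 0.85 stands beside ZKSCAN3 at 0.03.

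Genes of the same families also stand under other names. Of 6 tested BTB zinc finger genes with other symbols, MYNN rose to 45.9 ± 1.97 CPM under AIL, against 37.1 ± 2.12 CPM under DMSO (SD, n = 3; limma adjusted p = 2.63e-05), and 5 were not called. BCL6, a repressor in germinal centre B cells, PATZ1, HIC2, ZNF131 and GZF1 stood at 0.03, 0.11, -0.11, -0.02 and 0.02. Of 25 tested SCAN genes with other symbols, 9 rose and 2 fell (36% and 8%), with a median of 0.10. Among all genes tested, 28.2% rose and 25.9% fell. ZNF232, ZNF397 and ZNF274 rose by 0.41, 0.40 and 0.29, MZF1, a myeloid zinc finger gene, by 0.28, and PGBD1 and ZNF215 fell by 0.25 and 0.17 (limma adjusted p = 7.28e-06, 1.36e-05, 3.27e-04, 9.88e-04, 4.63e-04 and 0.00144).

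Of 28 genes for BTB corepressors and partners, 5 rose and 8 fell (46.4% called, beside 54.1% of all genes tested). Their median was -0.03. CUL3 fell to 85.4 ± 3.12 CPM under AIL, against 116.2 ± 3.02 CPM under DMSO (limma adjusted p = 7.76e-09), while RBX1, the RING subunit of CUL3 ligases, rose to 76.6 ± 2.46 CPM, against 55.4 ± 2.72 CPM (SD, n = 3; limma adjusted p = 2.92e-08). The deacetylase gene HDAC1 and the remodeler gene CHD4 fell by 0.39 and 0.26, and RBBP7 and TBL1XR1, which belong to corepressor complexes, by 0.22 and 0.23. BCOR, GPS2, a subunit of the NCOR complex, and the deacetylase gene HDAC4 rose by 0.30, 0.22 and 0.30 (limma adjusted p = 0.00324, 2.00e-04 and 2.93e-04), and were named after their values were seen. NCOR1 and HDAC3, which belong to a corepressor complex bound by BTB domains, stood at 0.05 and 0.06 and were not called (limma adjusted p = 0.0954 and 0.124). Of 6 genes for KRAB corepressors, TRIM28, ATF7IP and CBX1 fell by 0.12, 0.15 and 0.21 and 0 rose in limma, also 0 at an unadjusted p under 0.05. Beside these, 25.9% of all genes tested fell and 28.2% rose.

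Of 12 genes reported as targets of members, 3 rose and 5 fell (25% and 41.7%), with a median of -0.09. Of all genes tested, 28.2% rose and 25.9% fell. Of the reported autophagy and lysosome targets of ZKSCAN3, MAP1LC3B rose by 0.22, WIPI2 and ULK1 fell by 0.42 and 0.30, and LAMP1 stood at -0.03. Of the glycolytic genes repressed by ZBTB7A, PFKP and SLC2A3 rose by 0.17 and 0.31, and PKM stood at 0.01. CDKN2A fell by 0.17, and CDKN2B stood at -0.13. ZKSCAN3 and ZBTB7A themselves were not called, and a link between any member and these genes was not tested.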

How the data were processed

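RNA-seq values of 6 libraries (3 AIL, 3 DMSO) came from 1 table that the authors deposited, in CPM after TMM normalization, written to 2 decimals. Per the submitters' processing notes the tools included RSEM and edgeR 3.8.5, with no step named for either. The aligner, the annotation, whether counting used strand, and the build were not given in the sources used here. Because TMM assumes that most genes do not change, it hides a shift common to all genes. Depth was read from the step of low values, of which 51.1 to 88.7% lay within 0.1 reads of a whole number and 99.9 to 100% within 0.25 reads. Writing 2 decimals alone allows an error of up to 0.16 to 0.19 reads, so whole reads could be neither recovered at a tolerance of 0.1 reads nor excluded, and the planned tests on counts were not run.

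The test was two-sided and run in limma 3.58.1 (R 4.3.3), with an intensity trend, on log2(CPM + 1) of the 11069 genes that reached a mean of 1 CPM, and Benjamini-Hochberg adjusted p under 0.05 was a call. The pseudocount understates the change of low genes. The fit was tested on simulated data with far fewer changed genes and the same setting of spread for every gene. That test therefore does not cover the conditions of the real data. The members and lists were chosen with earlier results of these data known. All members could be named, and values in every library are given for the 12 called, non-overlapping members that rose most, for the 5 that fell and for some others chosen after their values were seen. From each list up to 6 genes with the smallest p are named, more in short lists, and others for their role. A few genes of the lists are counted but not reported by name here.

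Deviations from the group means were weakly correlated between same-numbered AIL and DMSO samples (0.159, 0.133 and 0.129 for replicates 1, 2 and 3). For unlike numbers the correlations were -0.18 to 0.02. Any pairing by number is read from these values alone and was not tested. Alternatives were pseudocounts, filters, scalings, no trend, a replicate block and leaving out each library. Shared 50-base words were counted in GENCODE 29 transcripts.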

Additional observations from a re-analysis of the deposited data

How the results depend on the processing

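The 25 members higher and 5 lower came to 21 to 25 and 4 to 7 under the other filters, pseudocounts, scalings and without a trend. In these settings 23.3 to 30.1% of all genes tested were called higher. The filter at a mean of 5 CPM left 49 members, with 21 higher and 4 lower, and kept all 25 calls that it tested. With the replicate number as a block, 25 members were higher and 5 lower, and no call of a member was lost or gained. Leaving out 1 library gave 21 to 23 members higher and 3 to 5 lower, and 3 to 5 ZBTB genes lower, with 3 reached without DMSO replicate 1. Of the 30 calls, 21 held in all settings in which the gene was tested, 18 higher and 3 lower. No called member changed sign. Uncalled members that did were, with quantile normalization, ZKSCAN3 (-0.0268), ZSCAN2 (-0.0150), ZBTB22 (-0.0266), ZSCAN25 (-0.00776), ZBTB18 (-0.0188) and ZBTB41 (-0.00349), and with median-of-ratios scaling ZBTB18 (-0.00236) and ZBTB41 (-0.00444). Leaving out 1 library moved ZBTB26 over -0.00572 to 0.126, ZBTB7A over -0.0167 to 0.106, ZSCAN2 over -0.00268 to 0.0425, ZBTB22 over -0.0697 to 0.113, ZSCAN25 over -0.0284 to 0.0495, ZBTB18 over -0.00950 to 0.0392, ZBTB41 over -0.0135 to 0.0329, ZBTB9 over -0.0217 to 0.0145 and ZBTB1 over -0.0269 to 0.0251. The cause was not tested. Low members are less precise, as for ZBTB8B, with an interval of -0.58 to -0.11. The edgeR and DESeq2 alternatives were not run, since the 2 decimals of the values are too coarse for a check of whole reads at 0.1 reads; this says nothing of what they would give.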
